A study of Caenorhabditis elegans with 2 samples.

Results

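The lipase and lipolysis genes of Caenorhabditis elegans were taken as all genes of the array whose symbol begins with lipl-, lips- or fil- followed by a number, together with atgl-1, hosl-1 and lid-1. This gave 29 of the 17118 genes that the platform annotation names on their own probe sets, read by 34 of 22625 probe sets. They are 8 lipl genes, 16 lips genes, 2 fil genes and the 3 genes of droplet lipolysis. The rule uses gene symbols alone, though it was set with earlier results of these data known.

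Whole hermaphrodites of the wild-type strain N2 were grown at 20 °C with Escherichia coli OP50 as food and collected at the fourth larval stage (L4). The control group was raised on standard plates without the compound (0 µg/mL). The exposed group was raised for 48 hours, from the L1 to the L4 stage, on plates holding 2 µg/mL of pOPC7, a trimeric proanthocyanidin gallate from grape seed (Vitis vinifera), in a study of grape seed extracts and worm lipids. Each group was 1 array, which leaves every difference without a replicate to set it against and without a p-value, and the precision of all values is limited by there being 2 arrays in total. The RNA came from whole animals, so fewer cells of a type and less RNA per cell cannot be told apart.

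Lipases free fatty acids from stored triglyceride. In the worm, which has no adipocytes, most fat is kept in droplets of the intestine and hypodermis and is released along separate routes. On the droplet surface ATGL-1, the homologue of adipose triglyceride lipase, acts with its cofactor LID-1, the homologue of mammalian CGI-58 (ABHD5), and HOSL-1 is the homologue of hormone-sensitive lipase. In the lysosome, acid lipases of the LIPL family break down fat delivered there, and several of their genes are known to be induced by fasting through the transcription factor HLH-30 and held down in fed worms by MXL-3. FIL-1 and FIL-2 are named as fasting-induced lipases, and the LIPS proteins are a lipase-related family.

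No lipase gene differed by as much as 1.5-fold between the arrays, and the genes went both ways. The deposited values are on a log2 scale, so a difference (pOPC7 minus control) of 1 is 2-fold, and 1.5-fold and 1.2-fold are differences of 0.58 and 0.26. Probe sets that name the same gene alone were averaged. A gene was called measured where the mean over both arrays was at least 6 and dim below that. Of the 29 genes, 11 were measured and 18 were dim. None of the 11 measured genes passed 1.5-fold in either direction, where 0.732% of the 8059 measured genes of the array were higher and 0.211% were lower by that much. None of the 11 passed 1.2-fold either, where 11.6% of measured genes were higher and 6.06% were lower. With 11 genes, the counts of 0 are not read as particular to lipases.

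**Figure D1:**
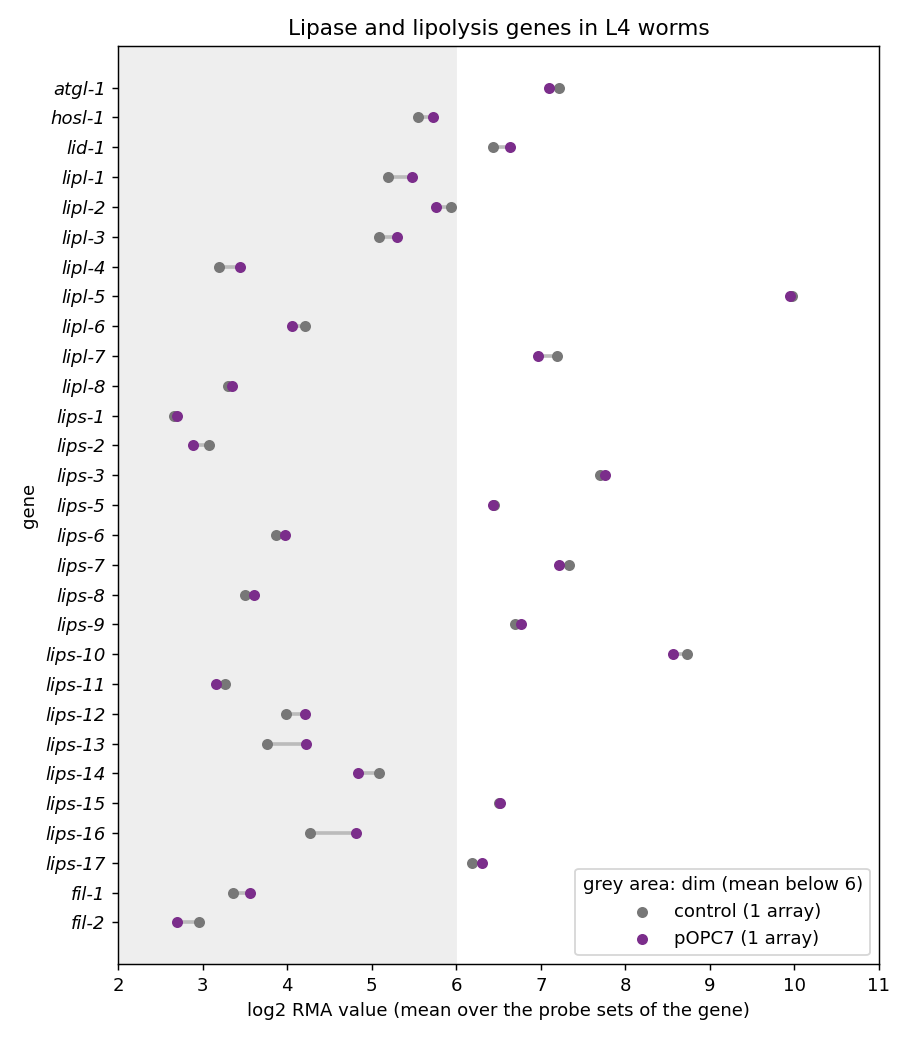
Each row is a gene and the points are its log2 RMA values (mean over the probe sets of the gene) in the control array (grey) and the pOPC7 array (purple), joined by a line. The grey area holds the 18 dim genes, the longest lines belong to lips-16 and lips-13 there, and levels of different genes rest on different probes and are not comparable.

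The 3 genes of droplet lipolysis did not share a direction. atgl-1 stood at 7.21 in the control array and at 7.09 in the exposed one (difference -0.12), and its 3 probe sets had different signs. The brightest of them went from 7.80 to 7.77 (-0.03), another from 6.82 to 6.35 (-0.47) and the last from 7.01 to 7.16 (0.15). The distance between the outer 2 of these differences exceeds the value of the gene itself. The 2 probe sets of atgl-1 that were lower in the exposed array are those for which the platform annotation lists a sequence accession. Over the whole array such probe sets had a median difference of -0.05 (1398 measured probe sets), against 0.05 for the 9047 measured probe sets without one. Within 872 genes that hold both kinds, those with an accession lay lower by a median difference of -0.13. Without them, the difference of atgl-1 was 0.15, of the opposite sign, so no direction can be given for this gene.

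lid-1 had the largest positive difference of the measured lipase genes. It went from 6.43 in the control to 6.63 with pOPC7 (0.20, or 1.15-fold), and 30.4% of all measured genes differed by at least as much in either direction. Both of its probe sets were higher in the exposed array, the bright one by 0.07 (7.66 and 7.73) and the dim one by 0.32 (5.21 and 5.53). The gene's difference therefore came mainly from a probe set below the measured limit. hosl-1 was dim, at 5.55 in the control and 5.72 with pOPC7 (0.17). Its probe sets differed in sign, with 5.71 and 6.16 for the brighter (0.45) and 5.39 and 5.27 for the other (-0.11). The brighter probe set had a mean of 5.94, just below the measured limit, and did not reach 1.5-fold.

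**Figure D2:**
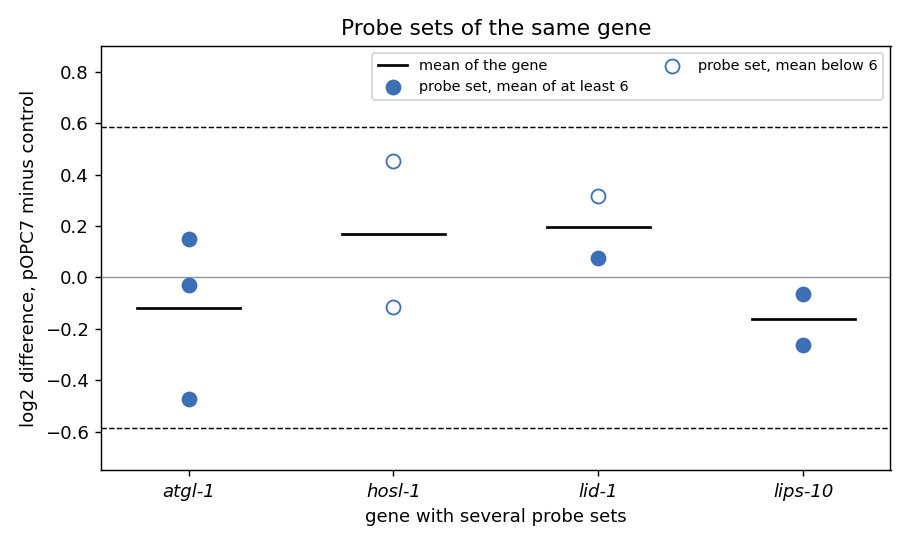
Log2 difference (pOPC7 minus control) of every probe set of the 4 lipase genes that have more than 1, with filled points for probe sets with a mean of at least 6, open points for dimmer ones, black bars for the gene's mean and dashed lines at 1.5-fold. Probe sets of atgl-1 (from -0.47 to 0.15) and of hosl-1 (-0.11 and 0.45) lie on both sides of 0, and those of lid-1 and lips-10 lie on one side.

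Among the lysosomal lipl genes only lipl-5 and lipl-7 were measured, and both were lower in the exposed array, by less than 1.2-fold. lipl-5, which is known to be induced by fasting, had nearly the same value on both arrays, 9.97 in the control and 9.95 with pOPC7 (-0.02). It was the brightest lipase probe set, and 89.7% of measured genes differed by at least as much. lipl-7 had 7.19 in the control and 6.96 with pOPC7 (-0.23, or 0.852-fold) on its only probe set. This was the largest negative difference of the measured lipase genes, and 22.9% of measured genes differed by at least as much. The arrays as a whole were shifted by a median of 0.04 in favour of the exposed array, and after that shift was removed lipl-7 stood at -0.27, just past 1.2-fold.

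The other 6 lipl genes were dim, 4 of them higher and 2 lower in the exposed array. lipl-1 and lipl-3, the fasting-induced lipases that MXL-3 represses, were among the 4. lipl-1 went from 5.19 in the control to 5.47 with pOPC7 (0.29, past 1.2-fold). lipl-3 went from 5.09 to 5.30 (0.21), on a probe set whose suffix (_s_at) marks matches to several transcripts. lipl-4, an intestinal lysosomal lipase whose overexpression is known to lengthen worm lifespan, was read at 3.19 and 3.44 (0.25). These 3 differences are of a size that many dim genes showed. Of the 9059 dim genes of the array, 26.9% differed by at least as much as lipl-1, 41.3% as lipl-3 and 33.4% as lipl-4. lipl-8 was read at 3.3 and 3.35 (0.05). On the other side, lipl-2 went from 5.93 to 5.76 (-0.17), with a mean of 5.85 that was the closest of the dim genes to the measured limit. lipl-6 went from 4.21 to 4.05 (-0.16). Dim genes of the array had a median difference of 0.08, and the 6 dim lipl genes had 0.13.

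The 2 fasting-induced lipase genes were both far below the measured limit and went opposite ways. fil-1 was read at 3.35 in the control and 3.55 with pOPC7 (0.20). fil-2 was read at 2.96 and 2.69, a difference of -0.27 that passed 1.2-fold, and 30.5% of dim genes differed by at least as much.

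The lips family held 7 measured genes, with differences from -0.16 to 0.12 and a median of 0.02. lips-10 was lowest, at 8.73 in the control and 8.57 with pOPC7 (-0.16). Of its 2 probe sets, the one with an accession and an _s_at suffix had 8.46 and 8.20 (-0.26) and the other had 8.99 and 8.93 (-0.06). Both were lower in the exposed array, though by unequal amounts. lips-7, which had 7.34 in the control and 7.22 with pOPC7 (-0.12), was the only other measured lips gene lower by more than 0.1. lips-17 stood at the other end, with 6.19 and 6.31 (0.12). lips-9 had 6.69 and 6.77 (0.07), on an _s_at probe set. Between them lay 3 genes whose values hardly differed. lips-3 had 7.71 in the control and 7.76 with pOPC7 (0.05). lips-15 had 6.50 and 6.52 (0.02), a difference that took the opposite sign (-0.02) once the median shift of all measured genes was removed. lips-5 had 6.44 and 6.43 (-0.01).

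The 9 dim lips genes spread more widely, from -0.25 to 0.54, with 6 of them higher in the exposed array and a median of 0.10. lips-16 had the largest difference of any lipase gene, from 4.27 in the control to 4.81 with pOPC7 (0.54, or 1.46-fold). It fell short of 1.5-fold, and 4.93% of dim genes differed by at least as much. lips-13 followed with 3.76 and 4.22 (0.46, or 1.37-fold), a size that 9.22% of dim genes reached. lips-11, lips-12 and lips-13 are direct neighbours among the protein-coding genes of the WBcel235 reference. They did not share a direction, since lips-12 went from 3.99 to 4.21 (0.22) and lips-11 from 3.27 to 3.15 (-0.11). lips-14 had the largest negative difference of the family, from 5.09 to 4.84 (-0.25), short of 1.2-fold. The remaining dim genes of the family were lips-8 (3.50 and 3.61), lips-6 (3.87 and 3.97), lips-1 (2.65 and 2.70) and lips-2 (3.07 and 2.89), with differences of 0.11, 0.10, 0.05 and -0.18.

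**Figure D3:**
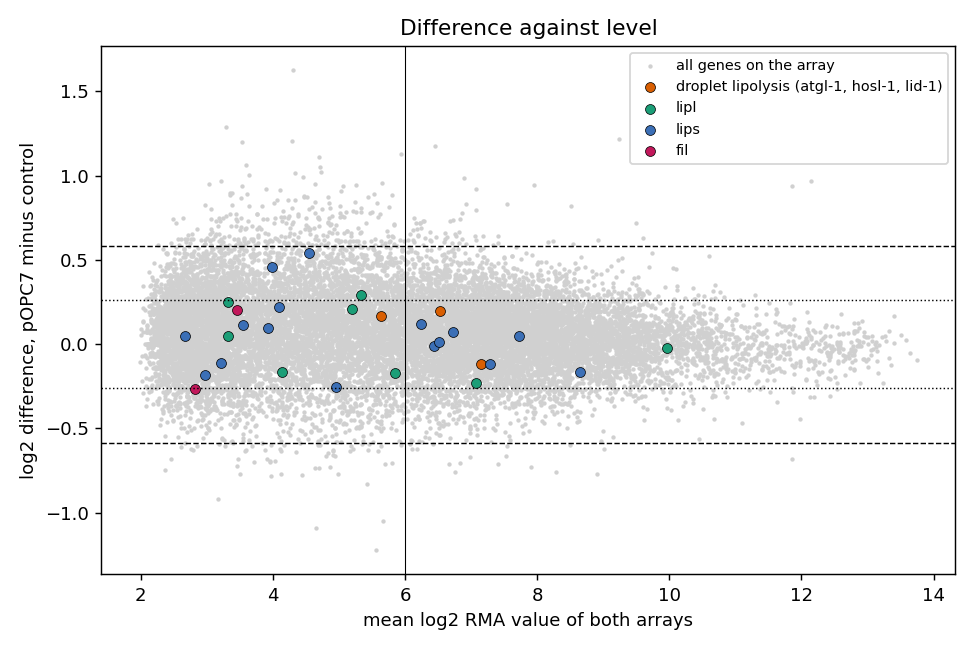
Log2 difference (pOPC7 minus control) against the mean log2 RMA value of both arrays, for all 17118 genes (grey) and the lipase genes coloured by family, with dotted lines at 1.2-fold, dashed lines at 1.5-fold and a vertical line at the measured limit of 6. All 29 lipase genes lie between the dashed lines, and those past a dotted line are dim.

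Across the dim genes 3 lipase genes were higher by at least 1.2-fold (lips-16, lips-13 and lipl-1) and 1 was lower (fil-2). Over all 9059 dim genes 22.9% were higher and 8.21% were lower by that much, so the share among the 18 dim lipase genes was near the background. None of the 18 passed 1.5-fold, against 3.02% higher and 0.662% lower over all dim genes. The median difference of the 11 measured lipase genes was -0.01, beside 0.04 for all measured genes. It was 0.10 for the 18 dim ones beside 0.08 for all dim genes. The differences of the measured lipase genes had an SD of 0.13 over genes, and those of all measured genes 0.20. For comparison, the disagreement between probe sets of the same measured gene corresponded to an SD of 0.22 for a probe set (1696 genes). The difference of every measured lipase gene except lipl-7 was smaller than that. This SD compares probe sets on the same pair of arrays, so it holds no variation between arrays or between animals. It is also for a single probe set, while atgl-1, lid-1 and lips-10 are means over several.

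Many of the dim lipase values were coarse. Of the 34 lipase probe sets, 16 had a log2 difference that at least 1 other probe set of the array shared to within 1e-06, and 8 shared it with at least 10 others. The difference of lips-11 recurred in 24 other probe sets, those of fil-1 and lips-2 in 20 each and those of lips-1 and lipl-8 in 18 each. Those of lips-8, the dim lid-1 probe set and fil-2 recurred in 15, 12 and 10. Among the 10 lipase probe sets with a mean below 4, 9 shared their difference, against 74.1% of such probe sets over the whole array. Among the 14 with a mean of at least 6 it was 2, against 15.8%. A dim lipase gene's difference was therefore often a value that other probe sets took as well.

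**Figure D4:**
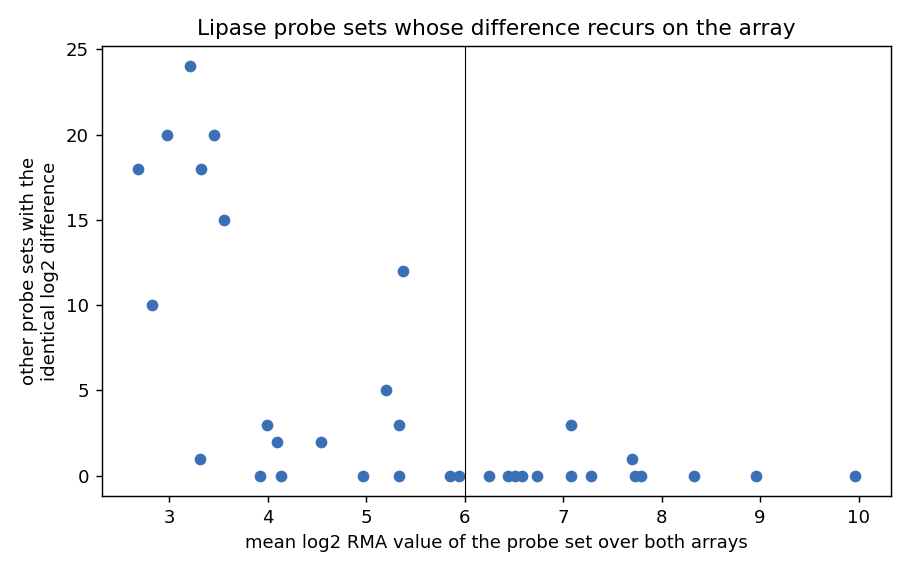
For each of the 34 lipase probe sets, the number of other probe sets of the array with the identical log2 difference (to within 1e-06) against the mean log2 RMA value of the probe set over both arrays, with a vertical line at 6. Recurring differences are concentrated below the measured limit, up to 24 other probe sets for lips-11, and no probe set at or above 6 shared its difference with as many as 10 others.

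Of 15 measured regulators of lipase genes and fasting, 2 were higher by 1.5-fold and none was lower by that much, beside 0.732% and 0.211% of all measured genes. They were mdl-1, which encodes a Mad-family repressor (8.63 in the control, 9.84 with pOPC7, difference 1.21), and mxl-3 (9.29 and 9.92, difference 0.63). Each rests on 1 probe set. The difference of mdl-1 was the largest of all 8059 measured genes, and the list was chosen with earlier results of these data known. The counts are therefore not read as particular to these regulators. hlh-30, which encodes the worm's TFEB and activates lysosomal lipase genes, had 8.26 and 7.95 (-0.31), but its 3 probe sets ran from -0.73 to 0.08. The lipase genes known as targets of both MXL-3 and HLH-30, lipl-1 and lipl-3, had 0.29 and 0.21 and were dim. Past 1.2-fold, 3 of the 15 regulators were higher and 1 was lower, beside 11.6% and 6.06% of all measured genes, and their median was 0.03. lbp-8, which encodes the lipid chaperone that carries a LIPL-4 signal from lysosome to nucleus, was dim (3.03 and 2.67).

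Genes that control lipolysis at the droplet had a median difference of 0.04 over 18 measured, and none passed 1.5-fold. Past 1.2-fold, 2 were higher and 1 was lower, shares near the 11.6% and 6.06% of all measured genes. ldp-1, which encodes a droplet protein, had 8.92 in the control and 9.23 with pOPC7 (0.31). egl-4, which encodes a cGMP-dependent protein kinase, had 8.85 and 8.54 (-0.31), with probe sets at -0.67 and 0.05. gsa-1, the gene of the stimulatory G protein alpha subunit that raises cAMP, had 7.16 and 7.44 (0.28), with probe sets at -0.03 and 0.60. The catalytic subunit genes of AMP-activated kinase, which phosphorylates ATGL-1, had -0.16 (aak-1) and -0.12 (aak-2). The 2 probe sets of aak-2 disagreed in sign, at -0.40 and 0.16. The droplet coat gene plin-1 differed by 0.05, and its 3 probe sets ran from -0.09 to 0.25.

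Other lysosomal genes had a median of -0.03 over 13 measured. nuc-1, the gene of a lysosomal DNase, had 8.48 and 8.85 (0.37) and was the only one of the 13 past 1.2-fold, where 11.6% of all measured genes were higher by that much. The membrane protein gene lmp-1 (0.21) and the cystine transporter gene ctns-1 (0.20) came next. Of 13 measured genes for other lipid hydrolases 2 were higher by 1.2-fold, near the background of 11.6%. They were plc-3, a phospholipase C gene (6.07 and 6.50, difference 0.43), and faah-1, a fatty acid amide hydrolase gene (6.70 and 7.13, difference 0.43). plc-4 had -0.25, and the median was 0.02. The list of fasting-response genes had a median of -0.06 over 10 measured, with 1 higher and 1 lower by 1.5-fold, both close to that threshold, beside 0.732% and 0.211% of all measured genes. Its acyl-CoA synthetase gene acs-2, which fasting is known to induce, was lower (8.80 and 8.20, difference -0.60, with probe sets at -1.0 and -0.19). The stearoyl-CoA desaturase gene fat-7, which fasting is known to lower, was higher (5.98 and 6.57, difference 0.59), and it lay above the measured limit of 6 in the exposed array only. The isocitrate lyase and malate synthase gene icl-1 had -0.23, and the remaining measured genes of the list ran from -0.17 (acdh-1) to 0.19 (fat-6). This list too was chosen with earlier results of these data known, so its counts are not read as particular to the fasting response.

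**Figure D5:**
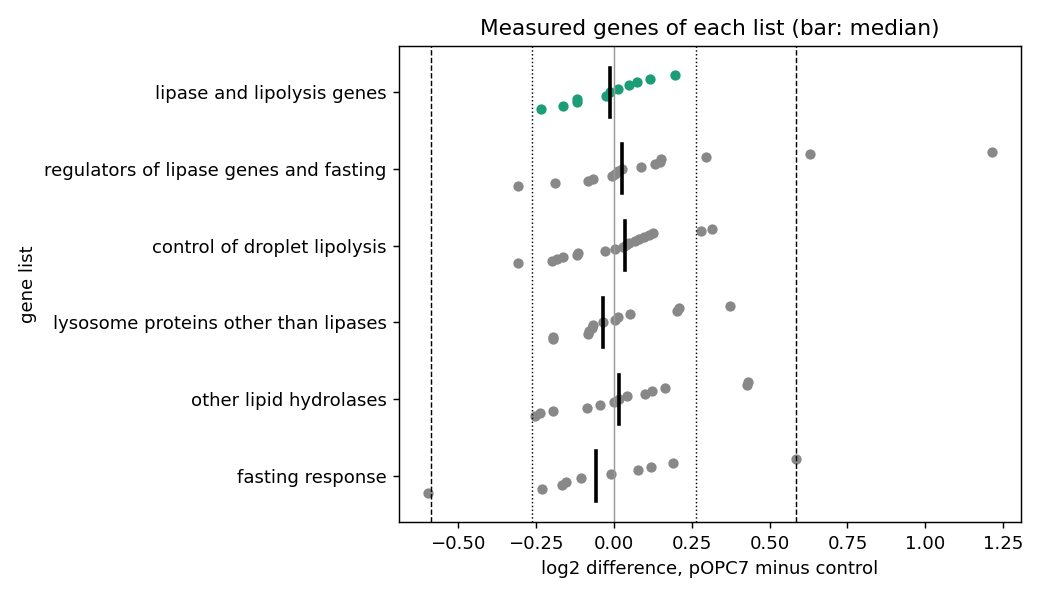
Log2 differences (pOPC7 minus control) of the measured genes of each list, with a bar at the list's median, dotted lines at 1.2-fold and dashed lines at 1.5-fold. The 11 lipase genes lie inside the dotted lines, while mdl-1 (1.21) and mxl-3 (0.63) among the regulators and acs-2 (-0.60) and fat-7 (0.59) among the fasting-response genes lie at or beyond the dashed ones.

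The arrays were close to each other over all genes, with medians of 5.94 (control) and 5.99 (pOPC7). Markers of the intestine, the main fat-storing tissue of the worm, were present on both arrays, with 11 of 12 measured, a median difference of 0.01 and a summed level of 13.66 in the control and 13.68 with pOPC7 (log2 of the summed linear values). Their defining GATA factor gene elt-2 was dim (5.55 and 5.52). Medians were 0.00 for 9 hypodermal and cuticle markers, -0.02 for 8 muscle markers and 0.06 for 8 neuronal markers. For 8 germline and 6 sperm markers they were -0.05 and -0.15. Lower by 1.2-fold were 3 sperm markers and 1 each of hypodermis, muscle, neurons and germline (6.06% of all measured genes were). Higher by 1.2-fold were 2 hypodermal markers and 1 each of intestine and neurons (11.6% of all measured genes were). Of 6 coelomocyte and gland markers 1 was measured (-0.06). The part of these lists in the lipase values was not tested.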

How the data were processed

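The deposited table holds 1 value per probe set and array. The authors made them with RMA, per the submitters' processing notes, and the deposited values were read as log2 from their range (1.78 to 13.90). The software and any averaging of hybridisations within a column are details not given in the sources used here. Per the labels' protocols 200 ng of total RNA was amplified and biotin-labelled.

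Gene names came from the platform's annotation table, whose Entrez identifiers matched 20701 singly named probe sets to WBcel235 genes, with 0 symbols changed. All 29 symbols that fit the rule in that reference were on the array, and no probe set naming several genes (887 in all) held one. Its gene order served only to find neighbouring genes. The value of a gene is the mean over its own probe sets and the difference is pOPC7 minus control. The limit of 6, the folds of 1.5 and 1.2, the members and the gene lists were chosen with earlier results of these data known. All members are named, and of each pathway list at least the 3 measured genes with the largest absolute difference.

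The code was checked on simulated data. The simulated shifts were larger than the difference of any lipase gene, so the check says nothing about differences of that size. Alternatives were limits of 5, 7, none or the brighter array at 6, centring, a loess trend (span 0.3), no _s_at or _x_at probe sets, the brightest or the median probe set, and the list's mean. Leaving out probe sets with an accession was added after seeing the data. Analyses used Python 3.11.15, pandas 2.3.3, numpy 2.4.6, statsmodels 0.14.6 and matplotlib 3.10.9.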

Additional observations from a re-analysis of the deposited data

How the results depend on the processing

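The count of measured lipase genes past 1.5-fold was 0 in each of the 10 other settings. The count past 1.2-fold was 0 in the main setting and in 6 others. It was 1 with a mean of at least 5 (lipl-1, of 15 genes), 4 with no limit on level (3 higher and 1 lower, of 29), 1 after centring on the median and 1 after removal of the loess trend (lipl-7 in both). The added genes of the first 2 settings are dim, and lipl-7 stood at -0.27 and -0.29 in the last 2. The median difference of the list ran from -0.12 (mean of at least 7, 6 genes) to 0.05 (no limit) over 11 other settings, and it changed sign. Each median was within 0.22, the SD of a single probe set, of the main value. Every measured lipase gene except lipl-7 had a smaller difference than 0.22, so a median could hardly leave that band and its staying there shows little. Of 172 values of single genes under other settings, 169 stayed within 0.22 of the main value. The other 3 were atgl-1 with the median of its probe sets or without those that carry an accession (0.15 in both) and hosl-1 with its brightest probe set (0.45). Many of the 169 were fixed beforehand, since settings that choose among probe sets could not change the value of the 25 genes with 1 probe set. Those settings could change the values of only 4 genes, and centring moved every gene by the same 0.04. Leaving out _s_at and _x_at probe sets also dropped lipl-3 and lips-9, whose only probe set is of that kind, which left 10 measured genes. The sign changed for 4 genes in at least 1 setting, which were atgl-1, lips-15, lipl-8 and lips-1, and none of them had passed 1.2-fold. Leaving out a replicate was not possible, and no paired analysis was possible because each group holds 1 array. No depth is recorded for arrays, and signal limits what can be read for the 18 dim genes.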

Other observations

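Recurring differences were a property of the whole table. Of 22625 probe sets, 39.1% had a log2 difference shared to within 1e-06 by another probe set, and 445 had the identical value on both arrays. The share was 15.8% at a mean of at least 6, 47.4% from 4 to 6 and 74.1% below 4. A difference shared with at least 10 others was found for 30.6% of probe sets below 4 and for 1.56% at 6 or above.

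Of the dim genes of the pathway lists, asm-3 and aakg-4 had differences larger than that of any lipase gene. The largest lipase difference (lips-16, 0.54) was reached by 4.93% of all dim genes. asm-3, a sphingomyelinase gene, was read at 3.65 in the control and 4.37 with pOPC7 (0.72). aakg-4, from the list of droplet control, was read at 4.38 and 4.93 (0.55), barely above lips-16. These genes were chosen after their values were seen.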
